A study of Arabidopsis thaliana with 24 samples.

Results

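In the rosettes studied here, 69 genes were at a lower transcript level in plants grown from seed treated with methyl jasmonate than in plants grown from water-treated seed, whether or not a pest was present. They were chosen from their own values. The mean level per group, in CPM (counts scaled by the same factor to the total of the library), had to be 0.75 times or less that of not-primed plants in each of the 3 infestation states, and 5 CPM or more in each not-primed group. Of the 32833 genes in the count table, 13561 met the minimum level and 77 of those met the ratios. A fixed set of 12 loci of heat, light, B-box, clock and cytokinin genes was kept apart, 8 of which had met the ratios, and this left the 69. All 69 code for proteins, and 35 of them have no symbol and are named by locus.

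The plants were Arabidopsis thaliana of wild-type (WT) genotype, and whole rosettes were sampled. Seed was treated with water (not primed, H2O in the labels) or with methyl jasmonate (primed), and plants of each kind were left uninfested or were infested for 24 hours. The pests were Tetranychus urticae, a spider mite that sucks out leaf cells, and Pieris brassicae, a butterfly whose caterpillars chew leaves. Each of the 6 groups had 4 libraries, 24 in all, and the primed groups differ from the others by the seed treatment alone as far as the labels say. The labels give neither the dose of methyl jasmonate nor the age of the plants, and they number biological replicates without saying whether each was 1 plant or several.

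Methyl jasmonate is the volatile ester of jasmonic acid, the hormone through which leaves respond to wounding and chewing. Seed priming exposes seed to such a signal and then compares the grown plants, long after the treatment. Of the 69 genes, 11 were assigned to protein folding and the heat response. In the folding machinery, small heat shock proteins hold unfolded proteins, J-domain proteins deliver them to Hsp70, and Hop proteins pass them on to Hsp90. The rest include transcription factors, kinases, transporters and enzymes of leaf metabolism and the cell wall.

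Library totals ran from 15852109 to 27986799 counts. Replicates 1 and 2 of the not-primed uninfested plants stood apart from replicates 3 and 4. The chi-square per gene between libraries of different pairs was 19.8 to 28.9, against 5.91 and 5.05 within the pairs. The not-primed caterpillar group split the same way to a smaller degree, with 10.3 to 16.3 between the pairs and 7.65 and 6.98 within them. Results that rest on these groups are given with and without each pair where that matters. Markers of the leaf mesophyll summed to 3.8e+04 to 5.52e+04 CPM in every library, with none at 0, while 4 seed storage markers summed to at most 2.03 CPM, with 1 to 3 of the 4 at 0 in each group. The 4 root markers summed to 168 to 737 CPM, with 1 or 2 of the 4 at 0 in each group. The sums of some markers of other cell types differed with priming in a single state. The 5 guard cell markers summed to 48.7 to 55.4 CPM in primed plants under caterpillars against 57.3 to 65.8 CPM in not-primed ones, with none at 0. The 6 flower markers summed to 5.32 to 7.57 CPM in primed uninfested plants against 3.65 to 4.68 CPM, with none at 0, and stayed at 2.72 to 6.71 CPM in the infested groups. The 3 trichome markers summed to 20.3 to 23.6 CPM in primed and 13.4 to 20.8 CPM in not-primed uninfested plants. The part of such shifts in the levels below was not tested, and in whole rosettes fewer cells of a type and less RNA per cell cannot be told apart.

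**Figure D1:**
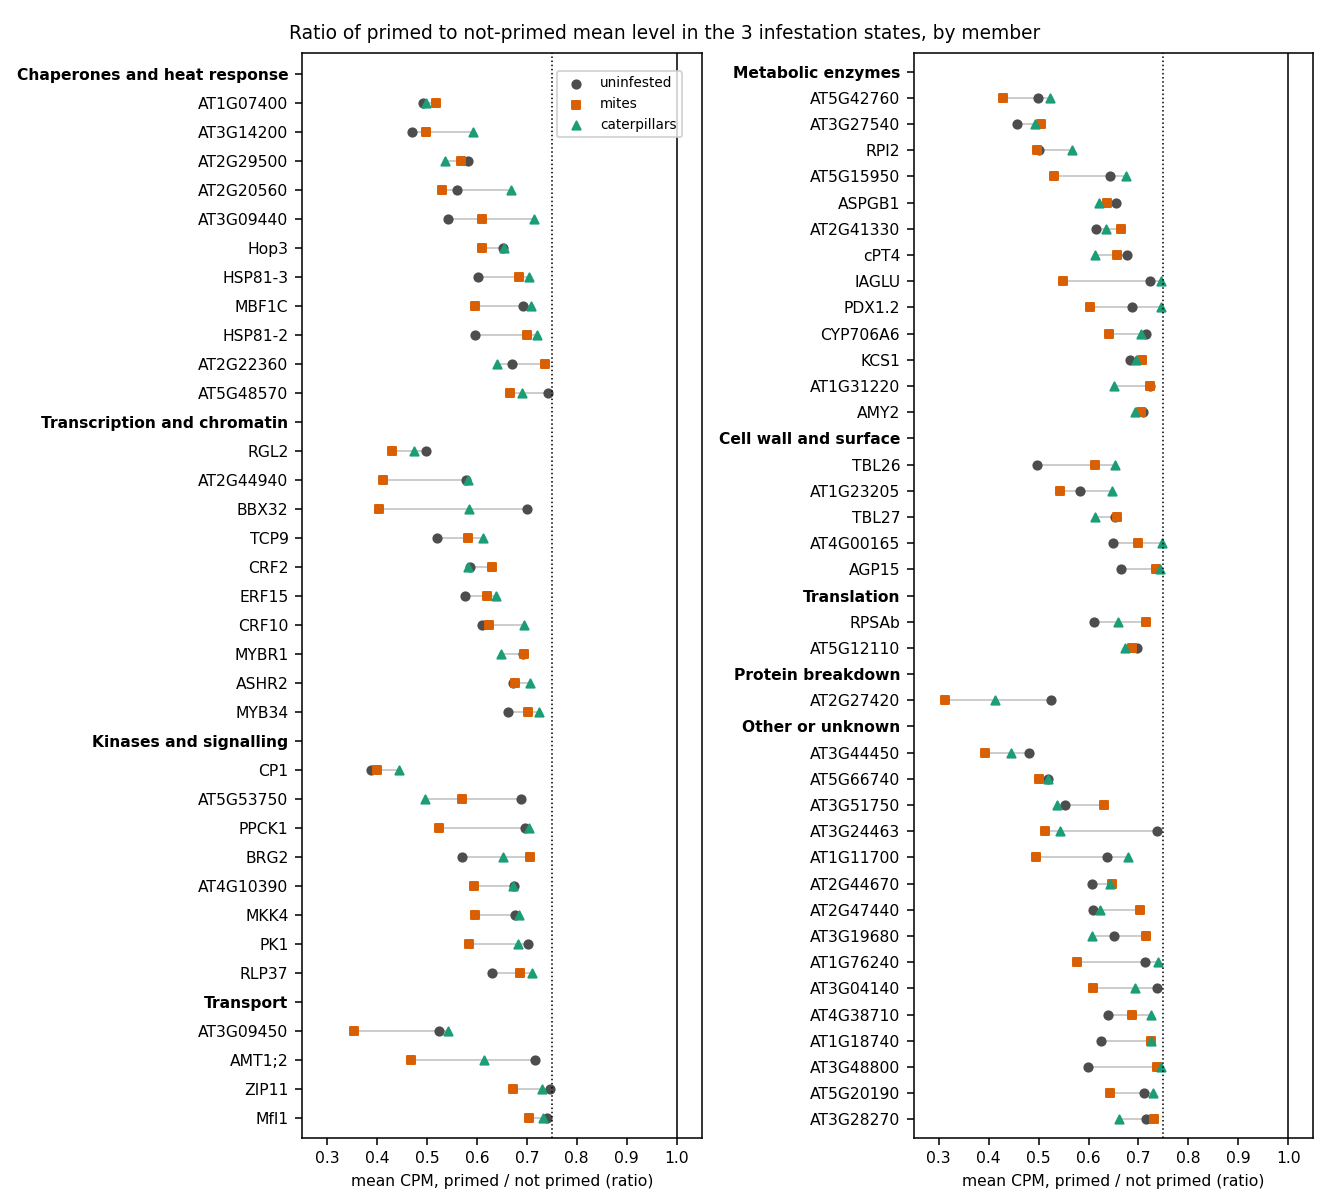
Ratio of the mean CPM of primed to not-primed plants (4 libraries each) for every one of the 69 genes, grouped by assigned role. Circles are uninfested plants, squares plants under mites and triangles plants under caterpillars. The dotted line is the 0.75 that chose the genes, the solid line marks equal levels, and the lowest point is AT2G27420 under mites at 0.313.

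Ratios of primed to not-primed means ran from 0.389 to 0.745 in uninfested plants, from 0.313 to 0.737 under mites and from 0.413 to 0.747 under caterpillars. Their medians were 0.643, 0.619 and 0.654, beside 1.027, 1.002 and 1.019 over all genes at the minimum level. These values chose the genes and are a description without a test. Of the 69, 16 genes were at 0.5 or less in at least 1 state, and 3 (CP1, AT3G44450 and RGL2) were so in all 3. The 3 ratios of a gene lay within 0.1 of each other in 42 of the 69. The lowest of the 3 was under mites in 30 genes, in uninfested plants in 25 and under caterpillars in 14. The highest of the 3 was over 0.7 in 35 genes. Nearest inside it were AT4G00165 (highest ratio 0.747), PDX1.2 (0.746) and ZIP11 (0.745), and nearest outside were AT1G20470 (0.751), eIFiso4G2 (0.753) and AGP17 (0.754).

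All 4 primed libraries were below all 4 not-primed libraries for 59 of the 69 genes in uninfested plants, 66 under mites and 62 under caterpillars. Over all tested genes this held for 7.42%, 5.66% and 4.21%, and over those at the minimum level for 9.72%, 7.18% and 5.43%; nothing is read from the excess, since the rule used these values. The libraries did not overlap in any state for 53 genes, and AT2G29500 was the gene whose libraries overlapped in all 3. The share of all genes without overlap in any state was not computed, so nothing is read from the 53. The primed mean was 0.75 times or less the mean of replicates 1 and 2 alone for 58 genes and that of replicates 3 and 4 alone for 57, and it was below both pairs for all 69.

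**Figure D2:**
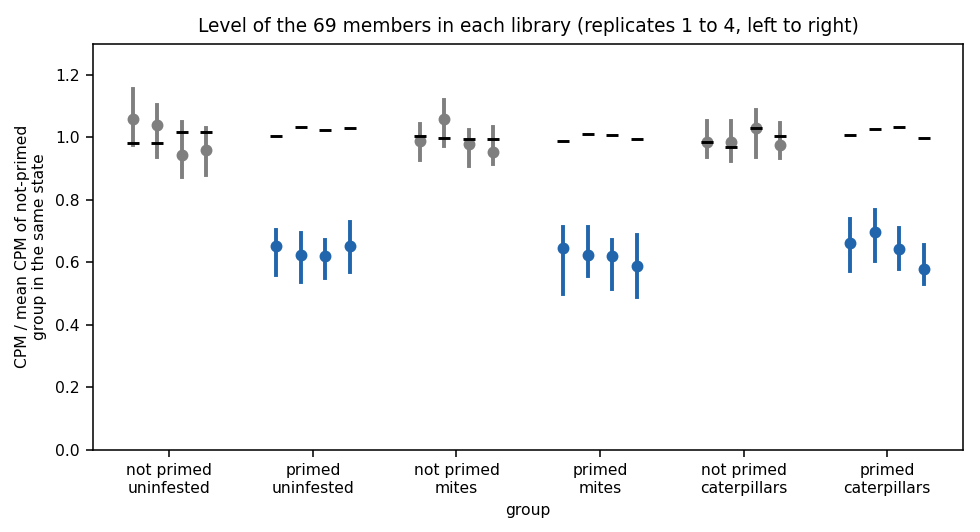
Level of the 69 genes in each library relative to the mean of the not-primed group in the same infestation state; points are medians over the genes, vertical bars run from the lower to the upper quartile, and short black dashes the median over all genes at the minimum level. Medians lie between 0.578 and 0.699 in the 12 primed libraries and between 0.944 and 1.06 in the 12 not-primed libraries, while the dashes stay between 0.971 and 1.034.

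Apart from the minimum level in each not-primed group, the rule set no condition on how a gene responds to the pests. These responses were tested with edgeR's quasi-likelihood test and p-values adjusted over all 20038 tested genes. All 69 were among them. The tests use the same libraries as the rule, so they are not independent of the choice of genes. In not-primed plants under mites 36 of the 69 fell and 19 rose, against 24.9% and 26.5% of all tested genes. Under caterpillars 26 fell and 13 rose, against 13.6% and 14.2%. In primed plants 32 fell and 19 rose under mites (23.5% and 22.3% of all genes), and 21 fell and 15 rose under caterpillars (11.8% and 12.1%). The median log2 fold changes of the 69 were -0.32, -0.18, -0.22 and -0.09 in these 4 comparisons, beside 0.01, -0.0047, -0.02 and -0.01 over all tested genes. Among the 13561 genes at the minimum level, the shares that fell were 31.7%, 18%, 30% and 15.5% and those that rose 28.2%, 15.7%, 22.9% and 12.7%. As shares of the 69, 52.2%, 37.7%, 46.4% and 30.4% fell and 27.5%, 18.8%, 27.5% and 21.7% rose. The share that rose under mites in not-primed plants was thus near the background and is no result about these genes. The difference of the other shares from the background was not tested. For scale, the 194 genes that met the opposite rule, raised by priming in every state, also fell more often than they rose, with 85 lower and 46 higher under mites and 84 lower and 20 higher under caterpillars in not-primed plants.

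Most of the 69 that were called in not-primed plants were called in primed plants as well. The shared part over all tested genes was not computed, so nothing particular to the 69 is read from it. Of the genes that fell under mites, 30 were shared, out of 36 in not-primed and 32 in primed plants, and of those that rose 18 were shared out of 19 and 19. Under caterpillars 17 falling genes were shared out of 26 and 21, and 13 rising genes out of 13 and 15. Whether the size of a response differed with priming was not tested, since that difference is built from the ratios that chose the genes. Comparing the pests directly, 16 of the 69 (23.2%) were higher and 11 (15.9%) lower under caterpillars than under mites in not-primed plants. The shares were 13.7% and 11.9% of all genes, and 18.5% and 12.7% of those at the minimum level. In primed plants 20 (29%) were higher and 7 (10.1%) lower, against 10.5% and 11.5% of all genes and 13.2% and 11.7% at the minimum level. The lower shares were near these backgrounds and are no result about the 69. The difference of the higher shares from them was not tested. The caterpillar counts rest in part on the split groups. Without uninfested replicates 1 and 2 the not-primed counts were 8 lower and 14 higher, and without caterpillar replicates 1 and 2 they were 16 lower and 8 higher. In primed plants 13 fell without replicate 4 of either group, in place of 21.

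**Figure D3:**
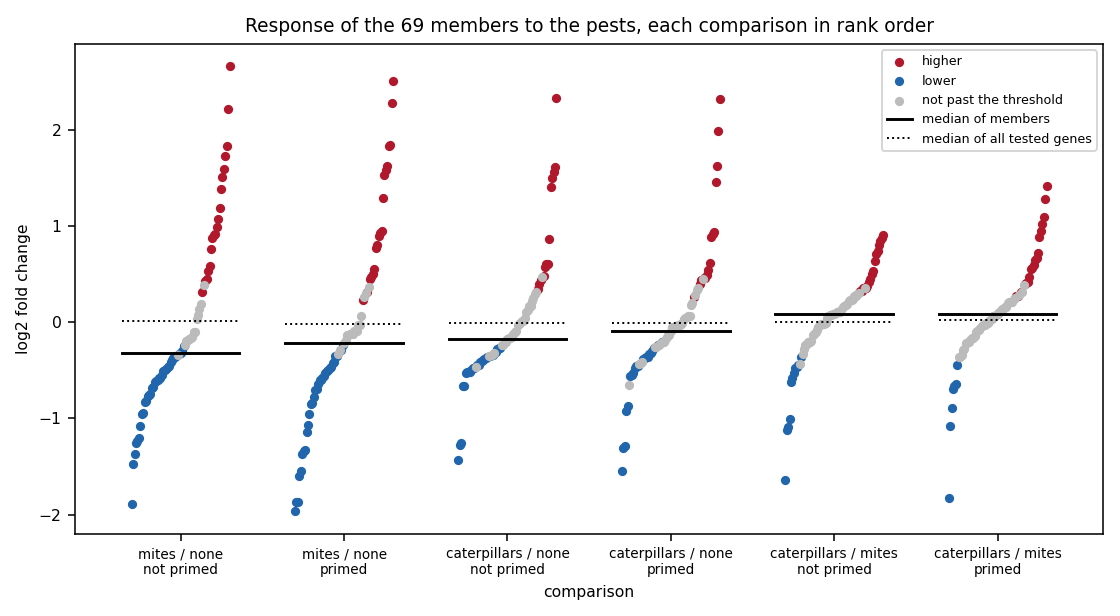
Log2 fold change of each of the 69 genes in the 6 pest comparisons (4 libraries a group), in rank order within a comparison; red and blue points passed an adjusted p of 0.05, grey points did not, and lines give the median of the 69 (solid) and of all tested genes (dotted). The solid line lies below the dotted one in the 4 comparisons with uninfested plants, and AT4G10390 is the highest point in each of these, up to 2.66.

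Chaperones and the heat response made up 11 of the 69 genes by assigned role. HSP81-2 and HSP81-3 code for Hsp90 chaperones of the cytosol. HSP81-2 was at 625, 626, 514 and 588 CPM in the 4 not-primed uninfested libraries and at 340.3, 357, 355 and 350.2 CPM in the primed ones. The primed libraries were all lower and closer together, at 351 ± 7.43 CPM against 588 ± 52.5 (SD, n = 4). Under mites its levels were 423, 486, 388 and 393 CPM in not-primed and 317, 303, 298 and 265 CPM in primed plants, and the groups did not overlap there either. Both pests lowered HSP81-2 in not-primed plants, mites by 0.50 (adjusted p = 1.1e-05) and caterpillars by 0.52 (adjusted p = 3.12e-05) on the log2 scale. The ratio of primed to not primed was 0.596 in uninfested plants, 0.7 under mites and 0.72 under caterpillars. HSP81-3 had ratios of 0.603, 0.684 and 0.704. The pair are near-identical neighbours with 1 gene between them on chromosome 5, and reads that fit both cannot be apportioned, so they may be a single measurement.

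AT3G09440, an Hsp70, showed a comparable pattern. It was at 632, 624, 549.6 and 624 CPM in not-primed and 332, 329, 323 and 331 CPM in primed uninfested plants, with no overlap in this or the other states. In primed plants neither pest moved it past the threshold (log2 fold changes -0.089 ± 0.085 for mites and -0.021 ± 0.085 for caterpillars). In not-primed plants it fell by 0.30 and 0.42 (adjusted p = 0.00478 and 0.000565). Whether the response differed between primed and not-primed plants was not tested, since that difference is built from the ratios that chose the gene. Per length, Hsp90 and Hsp70 were among the most abundant of the 69. In not-primed uninfested plants HSP81-3 was at 212 ± 23.7 FPKM, HSP81-2 at 206 ± 23.7 and AT3G09440 at 190 ± 16.3, neighbours in order that do not differ beyond their spread, behind AGP15 at 293 ± 71.6 FPKM (SD, n = 4; FPKM is fragments per kilobase of gene, scaled to the library).

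The co-chaperones and stress factors differed in what the pests did to them. Hop3, which links Hsp70 to Hsp90, was at 43.3, 48.3, 40.2 and 45.8 CPM in not-primed and 26.6, 28.5, 31.7 and 29.1 CPM in primed uninfested plants. Under mites it was at 20.2, 21.4, 20.03 and 23.6 CPM (not primed) and 12.3, 13.8, 13.7 and 12.2 CPM (primed), and under caterpillars at 15.8, 18.6, 22.5 and 14.7 CPM (not primed) and 11.3, 12.6, 13.2 and 9.86 CPM (primed). Every primed library was below every not-primed library in each state, and all infested libraries were below all uninfested ones of the same seed treatment. Hop3 fell under mites by 1.08 ± 0.10 (SE) in not-primed and 1.14 ± 0.10 in primed plants, and under caterpillars by 1.28 ± 0.10 and 1.28 ± 0.10 (adjusted p between 2.75e-09 and 7.82e-09 in edgeR). The Hop3 gene overlaps AT4G12390 on the other strand by 163 bases, and that gene has 1.36 times its counts. AT5G48570, a prolyl isomerase of the FKBP type that assists folding, also fell, with log2 changes of -1.203 ± 0.12 and -1.33 ± 0.13 under mites and -1.44 ± 0.13 and -1.55 ± 0.13 under caterpillars in not-primed and primed plants (adjusted p of 2.1e-08 or less). In uninfested plants its groups overlapped, with 56.5, 81.7, 86 and 90.2 CPM not primed and 57.03, 59.4, 64.8 and 52.1 CPM primed.

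MBF1C, a transcriptional coactivator of the heat response, went the other way under mites. It was at 18.02, 19.4, 20.4 and 20.1 CPM in not-primed uninfested plants and 37.6, 49.6, 32.4 and 37.5 CPM under mites, a rise of 0.99 (adjusted p = 1.93e-07). In primed plants it was at 13.01, 13.5, 12.7 and 14.9 CPM without pests and 27.2, 23.2, 25.97 and 17.2 CPM under mites, a rise of 0.80 (adjusted p = 1.09e-05). The gene overlaps AT3G24503 on the other strand by 124 bases, and that gene has 4.51 times its counts. The rise left the primed plants below the not-primed ones, with a ratio of 0.596. Caterpillars did not move it past the threshold in either kind of plant (-0.13 ± 0.12 and -0.09 ± 0.13), and it was lower under caterpillars than under mites (-1.119 ± 0.12 in not-primed and -0.89 ± 0.13 in primed plants, adjusted p = 4.7e-07 and 1.52e-05).

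Among the J-domain proteins, AT3G14200 rose under mites from 12.3 ± 1.95 to 28.2 ± 4.58 CPM in not-primed and from 5.75 ± 1.14 to 14.1 ± 3.01 CPM in primed plants (SD, n = 4). The log2 changes were 1.18 ± 0.14 and 1.29 ± 0.16 (adjusted p = 1.82e-07 and 3.18e-07). AT2G20560 also rose under mites, by 0.53 and 0.47 (adjusted p = 0.00336 and 0.0146). AT2G22360 fell under both pests in both kinds of plant, by 0.31 under caterpillars to 0.82 under mites in not-primed plants. The small heat shock genes were near the minimum level. AT1G07400 was at 8.20, 9.40, 11.9 and 13.5 CPM in not-primed and 5.97, 6.05, 4.83 and 4.33 CPM in primed uninfested plants, and its libraries did not overlap in that state. It fell under mites (-0.94 and -0.85 in the 2 kinds of plant), whereas its fall under caterpillars in not-primed plants (-0.67 ± 0.23, adjusted p = 0.0315) was lost when replicate 3 or 4 of the uninfested or of the caterpillar group was left out (adjusted p between 0.053 and 0.124), or both of either group (0.230 and 0.519). AT2G29500, at 3.26, 7.38, 10.1 and 9.44 CPM and 4.96, 4.27, 5.56 and 2.81 CPM in the same 2 groups, overlapped between them and passed the threshold in none of the 6 pest comparisons. In all, 7 of the 11 genes fell and 3 rose under mites in not-primed plants (24.9% and 26.5% of all tested genes). At the minimum level these shares were 31.7% and 28.2%. Under caterpillars 8 of the 11 fell and 1 rose (13.6% and 14.2% of all tested genes, 18% and 15.7% at the minimum level). The difference from these shares was not tested. The caterpillar count rests in part on the split groups and is given for the full groups only. Over the whole list, the genes lower under caterpillars went from 26 to 8 without uninfested replicates 1 and 2.

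**Figure D4:**
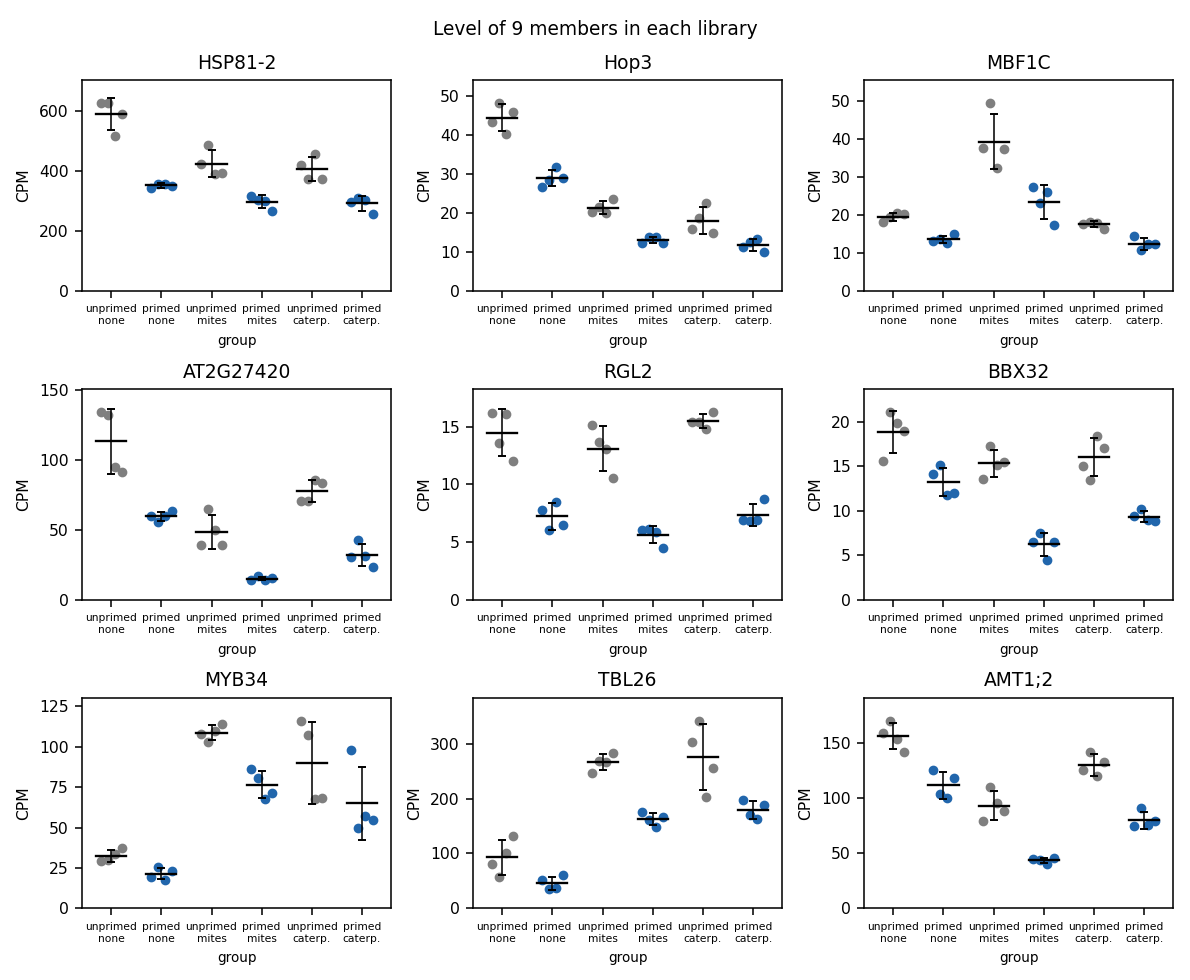
CPM of 9 of the 69 genes in each library (points), with the mean (black line) and SD (bars) of the 4 libraries of a group; grey is not primed and blue primed. Hop3 and AMT1;2 show no overlap between primed and not-primed libraries in any state, the group means of MBF1C are highest under mites in either kind of plant, and the MYB34 libraries are spread most widely under caterpillars.

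Regulators of transcription or chromatin made up 10 of the 69. RGL2 is a DELLA protein, a repressor of gibberellin responses best known from seed germination. It was at 16.2, 13.6, 16.1 and 12.1 CPM in not-primed and 7.79, 6.05, 8.52 and 6.52 CPM in primed uninfested plants. Under mites it was at 15.2, 13.7, 13.04 and 10.5 CPM (not primed) and 6.01, 6.13, 5.89 and 4.50 CPM (primed), and under caterpillars at 15.4, 15.4, 14.8 and 16.3 CPM (not primed) and 6.92, 6.81, 6.88 and 8.75 CPM (primed). The highest primed library in any state was below the lowest not-primed library, and the ratios were 0.498, 0.43 and 0.474. Neither pest moved RGL2 past the threshold in not-primed plants (-0.17 ± 0.13 for mites and 0.12 ± 0.13 for caterpillars). In primed plants it fell under mites by 0.36 ± 0.14 (adjusted p = 0.0426), with libraries that overlapped and mite replicate 4 (4.50 CPM) below the others. This call was not checked under other settings, and a difference between the 2 kinds of plant was not tested.

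BBX32, a B-box protein that acts in light signalling, had its lowest ratio under mites. Its levels were 15.6, 21.1, 19.9 and 18.9 CPM and 14.1, 15.1, 11.8 and 11.97 CPM in not-primed and primed uninfested plants, and 13.5, 17.2, 15.2 and 15.5 CPM (not primed) and 6.42, 7.47, 4.46 and 6.47 CPM (primed) under mites. The groups did not overlap in either state, and the primed mite libraries were the lowest. The ratio was 0.7 without pests, 0.404 under mites and 0.584 under caterpillars. In primed plants BBX32 fell under mites by 1.07 ± 0.13 (adjusted p = 2.86e-07), and in not-primed plants by 0.32 ± 0.12 (adjusted p = 0.0292). AT2G44940, of the AP2/ERF type of DNA-binding proteins, rose under mites from 12.3 ± 0.991 to 23.3 ± 2.88 CPM in not-primed plants (0.90 ± 0.12, adjusted p = 6.38e-07). In primed plants it rose from 7.10 ± 0.88 to 9.58 ± 0.981 CPM (0.44 ± 0.13, adjusted p = 0.00664), and the ratio went from 0.578 to 0.411.

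The strongest pest responses among the regulators were those of a pair of MYB factors, MYB34 and MYBR1. MYB34 is an activator of indole glucosinolate synthesis, the pathway of defence compounds made from tryptophan. It was at 29.5, 29.7, 33.7 and 37.3 CPM in not-primed uninfested plants, 108, 103, 109.9 and 114 CPM under mites and 116, 107, 67.5 and 68.3 CPM under caterpillars. The mite libraries were close together, and in the caterpillar group replicates 1 and 2 were well above replicates 3 and 4. In primed plants it was at 19.4, 25.6, 17.9 and 23.4 CPM without pests, 85.9, 80.4, 67.5 and 71.6 CPM under mites and 98.2, 50.02, 56.98 and 54.5 CPM under caterpillars, where its libraries overlapped with those of not-primed plants. It rose under mites by 1.72 ± 0.19 in not-primed and 1.84 ± 0.19 in primed plants, and under caterpillars by 1.497 ± 0.19 and 1.62 ± 0.19 (adjusted p of 1.64e-06 or less). Without caterpillar replicates 1 and 2 the not-primed rise was 1.06. MYBR1 rose by 1.60 and 1.62 under mites and by 1.56 and 1.46 under caterpillars in not-primed and primed plants (adjusted p of 4.57e-07 or less), and its primed and not-primed libraries overlapped in uninfested plants and under caterpillars.

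The other regulators had smaller responses. ERF15, an ethylene response factor, rose under mites by 0.76 and 0.90 and under caterpillars by 0.40 and 0.54 in not-primed and primed plants (adjusted p between 1.37e-05 and 0.0273). The cytokinin response factor CRF2 fell in all 4 of these comparisons, by 0.44 to 0.67, while its relative CRF10 passed the threshold in none of them. TCP9, of the TCP family of growth regulators, had ratios of 0.521, 0.582 and 0.612 and passed the threshold in 1 pest comparison, a rise under caterpillars in primed plants (0.40 ± 0.12, adjusted p = 0.0179). ASHR2, a SET-domain protein, did not pass the threshold in any pest comparison.

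The stretch upstream of each gene was searched on both strands for the letters of 7 known motifs, to which a second heat shock core, TTCNNGAA, was added after the first search. The data files carry no coordinates and the labels name TAIR10. The windows are the 250 bases before the gene start annotated by RefSeq on assembly TAIR10.1, and 27443 genes had one. The G-box CACGTG was in 7 of 69 windows (10.1%, against 6.49% of all windows) and the W-box TTGACN in 32 (46.4%, against 44.8%). The evening element AAAATATCT was in 2 (2.9%, against 2.36%), the site II element TGGGCC in 7 (10.1%, against 13.7%) and the dehydration element CCGAC in 6 (8.7%, against 12%). The heat shock element cores GAANNTTC and TTCNNGAA were in 4 windows each (5.8%, against 9.55% and 7.68%), none of them that of a chaperone gene. The GCC-box GCCGCC, bound by ethylene response factors, was in 4 windows (5.8%, against 1.87%), which was the widest ratio between the shares and was picked out after they were seen. In the windows with a GCC-box, the box overlaps a match to another motif in PK1, where it shares bases with site II. A match says only that the letters are there.

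The 4 windows with a GCC-box are shown, 5′ to 3′ on the strand of the gene, with the GCC-box in capitals. They lie at chr2:13307573-13307822 (minus strand, ERF15), chr3:8918017-8918266 (plus, MBF1C), chr3:2654213-2654462 (minus, PK1, a serine kinase of the S6 kinase type) and chr2:9497320-9497569 (plus, AT2G22360). The box starts 224, 230, 83 and 204 bases before the gene start, and in PK1 it lies on the opposite strand, so that the capitals read GGCGGC. The ERF15 window also holds a G-box, and those of MBF1C and PK1 a W-box each, in lower case.
ERF15: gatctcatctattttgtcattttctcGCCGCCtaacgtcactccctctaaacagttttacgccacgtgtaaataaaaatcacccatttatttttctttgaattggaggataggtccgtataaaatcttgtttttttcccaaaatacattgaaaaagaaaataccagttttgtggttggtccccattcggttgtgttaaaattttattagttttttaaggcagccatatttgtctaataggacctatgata
MBF1C: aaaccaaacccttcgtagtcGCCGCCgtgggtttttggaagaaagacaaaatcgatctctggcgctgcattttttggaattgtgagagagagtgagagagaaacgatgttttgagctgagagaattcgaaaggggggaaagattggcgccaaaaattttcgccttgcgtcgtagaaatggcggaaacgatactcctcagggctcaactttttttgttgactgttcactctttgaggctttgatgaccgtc
PK1: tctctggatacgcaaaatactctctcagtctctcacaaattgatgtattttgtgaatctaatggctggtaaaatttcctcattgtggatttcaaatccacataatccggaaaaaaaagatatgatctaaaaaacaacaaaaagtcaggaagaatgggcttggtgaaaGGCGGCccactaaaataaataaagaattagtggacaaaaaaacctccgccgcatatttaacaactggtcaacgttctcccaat
AT2G22360: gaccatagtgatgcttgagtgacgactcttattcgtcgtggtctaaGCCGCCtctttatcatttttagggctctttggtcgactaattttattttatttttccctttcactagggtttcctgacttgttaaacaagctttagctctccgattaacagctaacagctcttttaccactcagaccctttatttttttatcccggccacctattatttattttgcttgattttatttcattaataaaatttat

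Of the 4 genes, ERF15 and MBF1C rose under mites while PK1 and AT2G22360 fell. PK1 went from 186 ± 18.5 to 159 ± 6.82 CPM in not-primed plants (-0.25 ± 0.074, adjusted p = 0.00622) and from 131 ± 6.58 to 92.8 ± 4.16 CPM in primed plants (-0.48 ± 0.075, adjusted p = 9.49e-06).

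Genes assigned to kinases and signalling, 8 in all, were the role with the most rises. They include AT5G53750 and BRG2, whose annotations name a CBS domain and zinc binding. Under mites 6 rose and 1 fell in both kinds of plant. Of all tested genes 26.5% rose and 24.9% fell in not-primed plants, and 22.3% and 23.5% in primed plants. At the minimum level 28.2% rose and 31.7% fell in not-primed plants, and 22.9% and 30% in primed plants. The difference from these shares was not tested. The kinase gene AT4G10390 had the largest rise of the 69. It was at 4.80, 2.95, 6.64 and 8.02 CPM in not-primed uninfested plants and 35.5, 32.3, 35.99 and 39.2 CPM under mites, and in primed plants at 4.05, 5.03, 2.71 and 3.31 CPM without pests and 25.3, 20.9, 19.6 and 19.3 CPM under mites. Infested libraries were far above uninfested ones in both, by 2.66 ± 0.24 and 2.51 ± 0.26 on the log2 scale (adjusted p = 2.35e-09 and 2.55e-08). Its uninfested ratio of 0.674 rests on a low level and on the split, and was 0.974 against replicates 1 and 2 and 0.515 against replicates 3 and 4. MKK4, a kinase that activates the defence MAP kinases, was at 35.95, 27.5, 27.3 and 28.3 CPM under mites in not-primed and 18.9, 15.2, 17.7 and 19.1 CPM in primed plants. It rose by 0.92 and 0.77 from uninfested plants (adjusted p = 2.56e-06 and 7.63e-05). In uninfested plants the primed and not-primed libraries of MKK4 overlapped. Its ratio there was 0.676, with 0.851 against not-primed replicates 1 and 2 and 0.561 against replicates 3 and 4.

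CP1, a calcium-binding protein, had the lowest uninfested ratio of the 69. It was at 63.2, 60.7, 45.7 and 42.9 CPM in not-primed and 21.7, 19.9, 20.3 and 20.6 CPM in primed plants without pests. Under mites it was at 38.1, 52.2, 43.4 and 66.6 CPM (not primed) and 20.6, 21.8, 19.3 and 18.4 CPM (primed) and under caterpillars at 59.5, 60.8, 49 and 65.4 CPM (not primed) and 33.1, 26.1, 23.5 and 21.3 CPM (primed). The lowest not-primed library of any state, at 38.1 CPM, was above the highest primed one, at 33.1 CPM, and no pest comparison moved CP1 past the threshold. RLP37 is a receptor-like protein whose gene shares 2508 bases with a neighbour, AT3G23100, that has 0.659 times its counts. It rose under mites to 35.7, 28.6, 19.98 and 23.5 CPM in not-primed and 22.7, 19.8, 16.4 and 15.1 CPM in primed plants, by 1.39 and 1.53 (adjusted p = 3.49e-07 and 2.88e-07). It was higher under mites than under caterpillars by 1.09 and 1.08 in not-primed and primed plants (adjusted p = 4.65e-05 and 9.26e-05). PPCK1, the kinase that activates phosphoenolpyruvate carboxylase, rose by 0.88 and 0.50 under mites and by 0.60 and 0.62 under caterpillars in not-primed and primed plants. AT5G53750, a protein with a CBS domain, rose most under mites in not-primed plants (1.83 ± 0.20), and BRG2, annotated as a zinc-binding protein, rose under mites by 0.59 ± 0.14 and 0.93 ± 0.14. BRG2 was higher under mites than under caterpillars by 0.48 and 0.65 (adjusted p = 0.00966 and 0.00169).

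Of the 4 transport genes 3 fell under mites in both kinds of plant (24.9% and 23.5% of all tested genes). At the minimum level these shares were 31.7% and 30%, and the difference from them was not tested. AMT1;2, an ammonium transporter, was at 159, 170.3, 154 and 142 CPM in not-primed and 126, 104, 99.8 and 118 CPM in primed uninfested plants, and at 79.2, 110.5, 95.5 and 88.02 CPM (not primed) and 45.02, 43.6, 40.6 and 45.7 CPM (primed) under mites. The groups did not overlap, and the 4 primed mite libraries lay within a narrow band. It fell under mites by 0.76 ± 0.10 in not-primed and 1.34 ± 0.10 in primed plants (adjusted p = 4.02e-07 and 1.49e-10), and the ratio went from 0.715 to 0.468. AT3G09450, annotated to a fusaric acid resistance family, fell under mites from 17.7 ± 1.43 to 10.1 ± 1.14 CPM and from 9.30 ± 1.75 to 3.59 ± 0.861 CPM (-0.83 ± 0.14 and -1.37 ± 0.16). Under caterpillars its log2 changes were 0.011 ± 0.13 and 0.048 ± 0.14, and it was higher there than under mites by 0.84 and 1.41 (adjusted p = 7.32e-05 and 5.08e-07). AT3G09450 is the next gene to AT3G09440, the Hsp70 gene, on chromosome 3. The zinc transporter ZIP11 rose under mites (0.43 ± 0.084 and 0.31 ± 0.086), and Mfl1, a plastid carrier of the mitoferrin type, fell in all 4 comparisons with uninfested plants, by 0.28 to 0.50.

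Metabolic enzymes numbered 13, of which 8 fell and 1 rose under mites in not-primed plants (24.9% and 26.5% of all tested genes). At the minimum level these shares were 31.7% and 28.2%, and the difference from them was not tested. RPI2, ribose-5-phosphate isomerase of the pentose phosphate pathway, was at 101, 101, 75.1 and 76.7 CPM in not-primed and 46.8, 42.6, 42.5 and 45 CPM in primed uninfested plants. The primed libraries were close together and below both not-primed pairs, and the ratios were 0.5, 0.497 and 0.568. RPI2 fell under mites by 0.58 and 0.56 (adjusted p = 6.91e-06 and 3.14e-05). IAGLU, which joins glucose to the auxin indole-3-acetic acid, fell under mites from 82.4 ± 6.63 to 35.4 ± 2.17 CPM and from 59.5 ± 4.27 to 19.4 ± 2.18 CPM (-1.24 ± 0.093 and -1.60 ± 0.10, adjusted p = 1.47e-10 and 4.66e-12). Under caterpillars it fell by 0.36 and 0.32, and it was higher there than under mites by 0.88 and 1.28 (adjusted p = 3.61e-07 and 1.58e-09). IAGLU overlaps AT4G15545 on the other strand by 210 bases, and that gene has 7.37 times its counts.

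AT5G15950, an adenosylmethionine decarboxylase that makes a precursor of polyamines, was the most abundant enzyme of the group per length, at 129.6 ± 5.01 FPKM (SD, n = 4). It fell under mites by 0.33 and 0.58 (adjusted p = 0.000263 and 2.98e-07) and did not change past the threshold under caterpillars (-0.004 ± 0.07 in not-primed and 0.065 ± 0.07 in primed plants). cPT4, a cis-prenyltransferase, and the cytochrome P450 gene CYP706A6 fell under mites as well, the first by 0.76 and 0.77 and the other by 0.48 and 0.60. KCS1, which elongates the fatty acids of leaf wax, ASPGB1, an asparaginase, and the formyl transferase gene AT1G31220 passed the threshold in none of the 6 pest comparisons. AT5G42760, annotated as a leucine carboxyl methyltransferase, and AT3G27540, of an N-acetylglucosaminyltransferase family, were among the genes with the lowest mean ratios, at 0.498, 0.429 and 0.522 for the first and 0.457, 0.505 and 0.493 for the other. AT5G42760 fell under mites by 0.51 and 0.69 (adjusted p = 2.05e-05 and 1.22e-06). PDX1.2, a partner of vitamin B6 synthesis enzymes, was the enzyme gene that rose under mites in not-primed plants (0.45 ± 0.14, adjusted p = 0.0102).

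The 5 cell wall and surface genes ran in both directions. TBL26, of a family that acetylates wall polysaccharides, was at 80.5, 57.95, 101 and 132 CPM in not-primed uninfested plants and 51.3, 35.4, 37.6 and 60.2 CPM in primed ones, where the lowest of the former lay below the highest of the latter. Under mites it was at 247, 268, 266 and 284 CPM and 176, 161, 149 and 166 CPM, with no overlap. It rose under mites by 1.51 ± 0.18 and 1.83 ± 0.19 and under caterpillars by 1.61 ± 0.18 and 1.99 ± 0.19 (adjusted p of 5.79e-07 or less). AT1G23205, an inhibitor of invertase or pectin methylesterase by its annotation, fell under mites by 1.47 and 1.54 and under caterpillars by 0.67 and 0.52 (adjusted p of 0.00309 or less). AGP15, an arabinogalactan protein and the most abundant of the 69 per length, fell in all 4 comparisons, by 0.36 to 0.61. AT4G00165, of a lipid transfer and seed storage protein family, had a ratio of 0.747 under caterpillars and fell under mites by 0.74 and 0.60.

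Both translation genes fell under both pests in both kinds of plant. Of all tested genes 24.9% fell under mites and 13.6% under caterpillars in not-primed plants, and 23.5% and 11.8% in primed plants. At the minimum level these shares were 31.7%, 18%, 30% and 15.5%. The difference from these shares was not tested. AT5G12110, the beta subunit of elongation factor 1, was at 163, 177, 152 and 149.9 CPM in not-primed uninfested plants, 40.98, 53.1, 36.2 and 45.4 CPM under mites and 60.7, 59.7, 78.3 and 65.5 CPM under caterpillars. In primed plants it was at 108, 116, 118 and 105 CPM without pests, 26.6, 32.4, 30.9 and 30.8 CPM under mites and 43.7, 52.99, 43.7 and 37.2 CPM under caterpillars, below the not-primed libraries in each state. It fell by 1.89 and 1.87 under mites and by 1.26 and 1.31 under caterpillars (adjusted p of 4.47e-09 or less), the largest fall of the 69 under mites in not-primed plants. The gene shares 1221 bases with AT5G12120 on the other strand, and reads of the pair cannot be told apart where the counting took no account of strand. RPSAb, a protein of the small ribosomal subunit, fell by 0.62 and 0.35 under mites and 0.49 and 0.38 under caterpillars (adjusted p between 8.69e-05 and 0.0282).

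AT2G27420, a cysteine protease of the papain type, had the lowest ratio of any gene and state. It was at 135, 132, 95.03 and 91.6 CPM in not-primed and 59.8, 55.8, 59.6 and 63.2 CPM in primed uninfested plants. Under mites it was at 38.9, 65.2, 49.5 and 39.4 CPM (not primed) and 13.9, 16.6, 14.04 and 15.8 CPM (primed), and under caterpillars at 70.9, 70.8, 85.7 and 83.7 CPM (not primed) and 30.5, 42.96, 31.5 and 23.7 CPM (primed). The primed libraries were below the not-primed ones in each state, and in primed plants the mite libraries were also the lowest of all. It fell under mites by 1.26 ± 0.15 in not-primed and 1.97 ± 0.17 in primed plants (adjusted p = 2.56e-07 and 1.29e-09).

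Another 15 genes had no assigned role, with median ratios of 0.636, 0.642 and 0.661 in the 3 states. AT3G44450 has no function given in the RefSeq annotation used here. It was at 14.6, 14.3, 10.2 and 8.97 CPM in not-primed and 5.77, 5.57, 7.19 and 4.55 CPM in primed uninfested plants. Its ratios were 0.48, 0.393 and 0.445, and no pest comparison moved it past the threshold. AT3G28270, a putative membrane protein, was the gene that differed most between the pests. It was at 226, 226, 222 and 235 CPM in not-primed uninfested plants, 929, 1006, 1089 and 1261 CPM under mites and 356, 389.7, 306 and 270.3 CPM under caterpillars. It rose by 2.22 ± 0.12 under mites and 0.57 ± 0.12 under caterpillars, and by 2.28 ± 0.12 and 0.46 ± 0.12 in primed plants. It was lower under caterpillars than under mites by 1.64 and 1.83 (adjusted p = 1.86e-09 and 1.87e-10). AT5G66740, of unknown function, had ratios of 0.518, 0.5 and 0.518 and fell under mites by 0.95 and 0.96 (adjusted p = 5.63e-06 and 2.12e-05). AT3G24463, a protein of the nuclear transport factor 2 family, fell under mites (-1.37 ± 0.20 and -1.87 ± 0.21), but it shares 1359 bases with AT3G24460 on the same strand, which has 4.1 times its counts. Of the 69 genes, 20 overlap another protein-coding gene.

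Genes of the same pathways that are not among the 69 were counted in the same fit, where priming lowered 7.35% of all tested genes and raised 7.44% in uninfested plants, lowered 2.82% and raised 3.54% under mites, and lowered 4.16% and raised 3.99% under caterpillars. Of 24 other heat shock chaperone and factor genes tested, 12 were lower and 0 higher in primed uninfested plants, 9 and 0 with mites, 11 and 1 with caterpillars (that 1 became 0 when any of 6 of the 8 libraries was left out). At an unadjusted p of 0.05 the higher ones were 0, 1 and 1, and DESeq2 called 0, 0 and 1 higher. The caterpillar count of 11 was 5 without not-primed replicates 1 and 2. Without the loci kept apart by the rule, the counts lower were 6, 4 and 5 of 18. ROF1, an FKBP-type isomerase like AT5G48570, was lower by 0.45, 0.35 and 0.34 (adjusted p = 2.77e-05, 0.000619 and 0.00122), and the small heat shock gene AT1G54050 by 0.31 and 0.54 in the first 2 states (adjusted p = 0.0229 and 0.000176).

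Of 10 other B-box and HY5 genes, 4 were lower and 1 higher in uninfested plants, 5 and 0 under mites (0 higher at an unadjusted p of 0.05 and in DESeq2), and 4 and 1 under caterpillars. Without the loci kept apart, 1, 2 and 1 of 7 were lower and 1, 0 and 1 higher. The higher gene was BBX21, at 0.35 ± 0.075 without pests and 0.34 ± 0.075 under caterpillars (adjusted p = 0.00178 and 0.00495). The caterpillar count of 4 was 2 without not-primed replicates 1 and 2. HYH, the close relative of HY5, was lower in each state (-0.43 ± 0.082, -0.46 ± 0.084 and -0.54 ± 0.084; adjusted p = 0.000744, 0.000534 and 0.00012). Of 14 genes of the unfolded protein response, which adjusts folding capacity in the endoplasmic reticulum, edgeR called 0 in either direction in each state, with 1 higher and 2 lower at an unadjusted p of 0.05 in uninfested plants, 4 lower under mites and 1 lower under caterpillars, and DESeq2 called 1, 1 and 0 lower. In uninfested plants the call moved with the split of the control group, and 9 were lower without not-primed replicates 1 and 2 and 5 higher without replicates 3 and 4. Of 16 jasmonate synthesis and output genes 0 were called in uninfested plants (0 at an unadjusted p of 0.05 and 0 in DESeq2), but 7 were lower and 9 higher without the respective pair. JAZ8, a repressor of jasmonate output, was higher under mites (1.00 ± 0.30, adjusted p = 0.0482; 0 in DESeq2).

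Some lists held genes on the raised side. Of 20 genes of darkness and low sugar, 14, 11 and 12 were higher in the 3 states and 0, 0 and 1 lower (1, 1 and 2 lower at an unadjusted p of 0.05, and 1, 0 and 2 in DESeq2). TPS8, of the trehalose phosphate synthase family, was higher by 1.61 ± 0.094, 1.79 ± 0.094 and 1.37 ± 0.093. Of 8 nitrate response genes 5, 5 and 7 were higher and 0 lower (at an unadjusted p of 0.05, 0, 0 and 1 lower, and 0 in DESeq2). The first count was 3 without not-primed replicate 1, 3 or 4 or primed replicate 1. The last was 4 without not-primed replicate 2 or 4 or primed replicate 4, and 3 without not-primed replicates 1 and 2 together. BT5, of the BTB and TAZ domain family and in the list of dark and low sugar genes, was higher by 1.40 ± 0.13, 2.97 ± 0.15 and 2.15 ± 0.14. LBD37, a repressor of nitrate responses, was higher by 0.53 ± 0.083, 0.85 ± 0.086 and 0.70 ± 0.086. VTC2, which makes vitamin C and is in the list of light and UV-B stress, was lower by 0.55, 0.56 and 0.44 (adjusted p = 1.74e-05, 1.35e-05 and 0.0004).

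The other 11 lists follow, each with its counts in uninfested plants, under mites and under caterpillars. Of 15 abscisic acid and dehydration genes 6, 1 and 0 were higher and 0, 1 and 0 lower, and the 6 became 2 without not-primed replicates 1 and 2. Of 22 auxin and shade genes 7, 3 and 3 were higher and 1, 1 and 2 lower, and the 7 became 4 without not-primed replicate 3 or 4. Of 21 expansin and XTH genes, which loosen and remodel the wall, 4, 0 and 0 were higher and 6, 0 and 0 lower. That 6 became 2 without not-primed replicate 1 and 3 without primed replicate 1, and the 4 became 2 without not-primed replicate 4 or primed replicate 2. Of 25 photosynthesis genes 4, 0 and 0 were higher and 5, 0 and 3 lower, and the 4 became 1 or 2 without any 1 of the 8 libraries. Of 29 clock genes 4, 3 and 4 were higher and 3, 5 and 3 lower. Of 17 light and UV-B genes 2, 0 and 1 were higher and 4, 3 and 5 lower, and of 11 cytokinin genes 1, 0 and 0 higher and 4, 1 and 1 lower. The clock, light and cytokinin lists each hold 1 locus kept apart by the rule. Without it, 2, 4 and 2 of 28 clock genes and 4, 2 and 5 of 16 light genes were lower. Of 10 cytokinin genes 3, 0 and 0 were then lower. The counts higher did not change. Of 14 iron genes 1, 1 and 2 were higher and 3, 1 and 2 lower, of 10 cold genes 2, 0 and 0 higher and 0 lower, and of 7 phosphate genes 0 higher and 0, 1 and 1 lower. Of 14 salicylic acid genes 0 were called in any state, but 8 were higher in uninfested plants without not-primed replicates 3 and 4. Wherever edgeR called 0 in these 11 lists, at most 6 genes passed an unadjusted p of 0.05 and at most 1 was called by DESeq2. Most of the smaller counts also moved by over 1.5 times when some single library or pair was left out.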

How the data were processed

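RNA from whole rosettes was sequenced, and the authors deposited raw counts and FPKM values per gene in 24 libraries of 6 groups. Reads were aligned with HISAT2 to TAIR10, per the submitters' processing notes. How reads were counted, with which annotation and whether by strand, is not given in the sources used, so reads of overlapping genes and of close paralogs (HSP81-2 and HSP81-3, the Hsp70 and HSP20 genes) could not be apportioned. CPM is the count divided by the library total, and FPKM was used only to order levels between genes. Totals ran from 15852109 to 27986799 counts, and 6603 of 32833 genes had no count.

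All 24 libraries were fitted together with edgeR 4.0.16 (TMM scaling, quasi-likelihood F test, limma 3.58.1, R 4.3.3) over the 20038 genes that passed its filter on low counts, with Benjamini-Hochberg adjusted p-values and a threshold of 0.05. Standard errors are the log2 fold change divided by the square root of F. The code was tested on simulated data. The labels do not say that replicates are separate plants, so p-values reflect only how far these libraries spread, which may be technical. Alternatives were DESeq2 1.42.0, no filter, a replicate block, each library left out, and pairs of libraries left out; those of the not-primed caterpillar group were chosen after the data were seen. No test was made of priming in the 69 genes, because that contrast chose them. The members and gene lists were chosen with earlier results of these data known.

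Genes named are the 15 with the lowest mean ratio and those in the heat and B-box lists. They also include the largest responses to each pest and the genes nearest the threshold. Others were named for their role after their values were seen. Roles were assigned for this report and are not categories of the annotation. Of the table's genes, 32548 matched RefSeq TAIR10.1, from which names, overlaps and upstream sequences were taken.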

Additional observations from a re-analysis of the deposited data

Results flagged for a closer look

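Of 114 groups of 4 libraries examined for a library far from the other 3, 5 were picked out by Dixon's criterion, where chance gives about 1 in 20. RGL2 was at 4.50 CPM in primed mite replicate 4, against 5.89 to 6.13 CPM in the other 3, and at 8.75 CPM in primed caterpillar replicate 4, against 6.81 to 6.92 CPM. AT5G66740 was at 21.9 CPM in not-primed caterpillar replicate 3, against 18.4 to 18.9 CPM. RPI2 was at 42.6 CPM in primed caterpillar replicate 2, against 37.6 to 38.1 CPM. AT2G20560 was at 9.01 CPM in not-primed caterpillar replicate 4, against 11.6 to 11.7 CPM. In all 5 cases the primed and not-primed libraries of that state did not overlap.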

How the results depend on the processing

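The list itself held between 57 and 96 genes under other settings: 79 with TMM scaling, including all 69, 67 with medians in place of means, sharing 59, 96 with a minimum of 1 CPM, 57 with a minimum of 10 CPM, and 60 to 75 with 1 library left out. Counts of the 69 called under caterpillars moved most. In not-primed plants the 39 called became 22, with 8 lower, without uninfested replicates 1 and 2, and 24, with 8 higher and 16 lower, without caterpillar replicates 1 and 2. In primed plants the 21 lower ranged from 13 to 24 with 1 library left out. Over all genes, priming called 2962 in uninfested plants, but 1370 without not-primed replicates 1 and 2, 4537 without replicates 3 and 4, and 1854 to 3302 with 1 library left out. Under caterpillars it called 1634, but 949 and 830 without not-primed replicates 1 and 2 or 3 and 4, and 1032 to 1574 with 1 library left out. No recomputed log2 fold change changed sign, but only those of the largest responses in each pest comparison were recomputed. The other named changes were not checked under these settings. The balance of the 69 under caterpillars in not-primed plants turned without uninfested replicates 1 and 2. It went from 26 lower and 13 higher to 8 lower and 14 higher. The calls of the unfolded protein response and jasmonate lists also turned between the pairs. Replicate numbers did not pair the libraries (correlations of deviations -0.175 to 0.17), and with a replicate block 55, 39, 52, 38, 28 and 29 of the 69 were called in the 6 pest comparisons. Over all genes the block called 2868, 1267 and 1615 for priming in the 3 states. Of the named responses recomputed, AT1G07400 under caterpillars lost its call, in 6 alternatives. Among the list counts and named genes, 195 of the recomputed values, all list counts, moved by over 1.5 times and 1521 did not. The cause of these shifts was not tested. Genes near 5 CPM, such as AT4G10390 and AT2G29500, are limited by depth.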
